A study of Mus musculus with 9 samples.

Results

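The transcripts described here are those of Srebf1 and of 9 genes linked to the making of fatty acids from acetyl-CoA. They were measured in the livers of mice that had received antibiotic pulses early in life and of control mice. The 10 genes were chosen by name, with earlier results of these data known: Srebf1, Acly, Acaca, Acacb, Fasn, Scd1, Scd2, Elovl6, Me1 and Thrsp. Shares over all genes, given below beside counts of the 10, are therefore descriptions and no independent support. All 10 genes were on the array, which measured 18193 genes, and together they had 25 of its 45037 probe sets. The probe set with the highest mean signal stood for a gene where it had several.

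Liver RNA of female C57BL/6J mice was hybridized to Affymetrix arrays, with 3 arrays for the control group, 3 for amoxicillin and 3 for tylosin. The treated mice drank amoxicillin at 0.167 mg/ml, meant to give 25 mg per kg a day, or tylosin at 0.333 mg/ml, meant to give 50 mg per kg a day, in 3 pulses on days 10 to 15, 28 to 31 and 37 to 40 of life. The control mice received no antibiotic, and after the last pulse the mice of all groups were moved to a high-fat diet. Livers were taken at 22 weeks of age according to the design text and at 24 weeks according to the sample labels, so that the comparison asked which differences remained long after the drug was withdrawn. Livers were collected at sacrifice, and the paper describes the serum from sacrifice as fasting. Littermates shared both a treatment and a cage, and the litter of each array is not given. The p-values therefore measure the spread between these arrays, and litter and treatment cannot be told apart.

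De novo lipogenesis is the making of fatty acids from acetyl-CoA, and in the liver it rises after feeding and falls during fasting. ATP citrate lyase cuts citrate to give acetyl-CoA in the cytosol, acetyl-CoA carboxylase turns this into malonyl-CoA, and fatty acid synthase joins the units into palmitate with electrons from NADPH, after which an elongase and desaturases finish the chain. Srebf1 encodes SREBP1, a membrane-bound factor that is cut free to enter the nucleus. There it switches on the genes of this chain, under the control of insulin and of the oxysterol receptor LXR.

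All values are log2 expression values made with robust multi-array averaging (RMA), so a difference of 1 is a doubling of signal. They ran from 2.0 to 14.71, and the median of an array was 3.96 to 4.06. Albumin (Alb) was at 14.64 to 14.71 and transthyretin (Ttr) at 14.44 to 14.53 in all arrays, and the log2 of the summed signal of the 5 hepatocyte markers measured, of 6 listed, was 16.66 to 16.72. Amoxicillin replicate 1 and tylosin replicate 2 stood apart by transcripts of gut mucosa and smooth muscle. Reg3b, an antimicrobial lectin of gut mucosa, was at 10.18 and 9.72 in them, at 7.75 in tylosin replicate 1, and at 2.67 to 3.15 in the other arrays. Results that rest on amoxicillin replicate 1 or tylosin replicate 2 are given with and without this pair. Tylosin replicate 1 was kept in those fits. In whole liver, fewer cells of a type and less RNA in each cell cannot be told apart.

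The promoter windows of the genes that carry the results are shown first, since SREBP1 acts there together with the factors NF-Y and Sp1. Each window runs from 250 bases before to 50 bases after a transcription start in RefSeq on build GRCm38.p6, on the minus strand for all 5 windows printed. The table held 11 windows for 8 of the 10 genes, and none was found in it for Scd1 and Scd2. Capitals mark CCAAT, the NF-Y box, and GGGCGG, the Sp1 box, on either strand, so that a match on the opposite strand reads ATTGG or CCGCCC. The windows of Srebf1 are chr11:60222532-60222831, chr11:60220578-60220877 and chr11:60210422-60210721, that of Acly is chr11:100527951-100528250 and that of Fasn is chr11:120824498-120824797.
Srebf1 first start: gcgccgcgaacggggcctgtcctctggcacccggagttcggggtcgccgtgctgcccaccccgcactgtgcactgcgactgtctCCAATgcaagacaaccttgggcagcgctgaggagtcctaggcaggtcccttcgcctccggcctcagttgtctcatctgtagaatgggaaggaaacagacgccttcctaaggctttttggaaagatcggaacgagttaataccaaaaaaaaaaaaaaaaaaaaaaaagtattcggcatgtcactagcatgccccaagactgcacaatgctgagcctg
Srebf1 second start: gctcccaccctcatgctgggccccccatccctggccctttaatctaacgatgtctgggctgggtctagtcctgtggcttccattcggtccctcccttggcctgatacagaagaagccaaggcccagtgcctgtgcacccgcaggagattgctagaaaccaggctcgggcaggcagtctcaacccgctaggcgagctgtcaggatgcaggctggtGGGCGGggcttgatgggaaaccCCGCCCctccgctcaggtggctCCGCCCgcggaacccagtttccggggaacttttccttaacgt
Srebf1 last start: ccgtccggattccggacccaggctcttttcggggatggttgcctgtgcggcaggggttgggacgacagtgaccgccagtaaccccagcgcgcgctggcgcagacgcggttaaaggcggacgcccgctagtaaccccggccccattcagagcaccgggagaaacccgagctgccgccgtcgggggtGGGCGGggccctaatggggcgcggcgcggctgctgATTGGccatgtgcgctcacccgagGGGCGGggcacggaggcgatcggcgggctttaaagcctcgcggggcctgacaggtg
Acly: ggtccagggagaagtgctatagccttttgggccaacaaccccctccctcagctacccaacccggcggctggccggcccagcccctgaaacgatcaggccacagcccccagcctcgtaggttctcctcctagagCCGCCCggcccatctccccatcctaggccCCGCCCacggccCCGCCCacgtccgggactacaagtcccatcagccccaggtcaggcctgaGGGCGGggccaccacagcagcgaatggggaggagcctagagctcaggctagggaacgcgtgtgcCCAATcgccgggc
Fasn: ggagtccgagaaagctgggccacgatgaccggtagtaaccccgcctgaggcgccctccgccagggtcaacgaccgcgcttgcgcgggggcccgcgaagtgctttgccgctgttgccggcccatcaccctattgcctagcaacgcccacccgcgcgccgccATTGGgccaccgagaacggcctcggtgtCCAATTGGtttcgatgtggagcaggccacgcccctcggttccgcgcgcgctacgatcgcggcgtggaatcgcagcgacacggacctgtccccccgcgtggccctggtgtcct

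CCAAT was present in 7 of the 11 windows, belonging to Srebf1, Acly, Acacb, Fasn, Me1 and Thrsp, against 37.4% of all 32851 promoter windows in the table. Fasn had 3 matches, beginning at positions -90, -62 and -59 from the start, and the last pair overlap on opposite strands. GGGCGG was present in 4 of the 11 windows, those of Acly, Me1 and the last 2 starts of Srebf1 printed above, against 35.7% of all windows. Acly had 4 matches, at -117, -88, -76 and -27. The sterol regulatory element TCACNCCA, the site that SREBP binds, was found in none of the 11 windows on either strand and in 4.36% of all windows, and CACGTG, an E-box, in none and in 7.15%. These are matches of letters in a short window, and the array did not measure which start of Srebf1 was used.

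Srebf1 was higher in all 6 arrays of antibiotic-exposed mice than in any control array. Its only probe set, 1426690_a_at, read 8.38, 8.31 and 8.58 in control replicates 1 to 3. It read 9.36, 9.23 and 9.18 with amoxicillin, and 9.01, 8.72 and 8.81 with tylosin. The 3 groups formed separate bands, with amoxicillin highest, tylosin between and control lowest, and no array of one group entered the band of another. The share of all genes with 3 such bands is not given, and shares for pairs of groups are given below.

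The group means of Srebf1 were 8.43 ± 0.14 (SD, n = 3) in control, 9.26 ± 0.10 with amoxicillin and 8.85 ± 0.15 with tylosin. Amoxicillin exceeded control by 0.83 (1.78-fold, SE 0.11, 95% confidence interval 0.59 to 1.07), with an unadjusted limma p of 1.4e-05 and a Benjamini-Hochberg adjusted p of 0.17 over all probe sets. A gene was called here, after the study's methods, when the unadjusted p was below 0.01 and the log2 difference beyond 0.5 in either direction. Srebf1 rose with amoxicillin by this rule. Tylosin exceeded control by 0.42 (1.34-fold, SE 0.11, interval 0.18 to 0.66), with an unadjusted limma p of 0.003 and adjusted p = 0.19. This passed the p but not the fold, so it was not called. The antibiotics themselves differed by -0.41, tylosin minus amoxicillin (SE 0.11, interval -0.65 to -0.17), with an unadjusted limma p of 0.0034 and adjusted p = 1.0, again short of the fold. Without amoxicillin replicate 1 and tylosin replicate 2, this difference was -0.30 with an unadjusted limma p of 0.053, while that of amoxicillin from control was 0.78 and stayed called.

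Among the 10 genes, 2 were called higher with amoxicillin and 0 lower, where 0.835% of all genes were called higher and 0.445% lower. They were Srebf1 and Acly. In 4 of the 10, Srebf1, Acly, Fasn and Scd2, all amoxicillin arrays lay above all control arrays, which held for 9.52% of all genes. With tylosin 0 of the 10 were called, against 1.01% of all genes called higher and 0.44% lower. At an unadjusted limma p below 0.05 there were 4 with amoxicillin, the same 4 genes, and 3 with tylosin. Those 3, Srebf1, Acly and Scd2, were also the ones with all tylosin arrays above all control arrays, which held for 8.21% of all genes. Without the fold threshold, Srebf1 alone of the 10 passed the p of 0.01 with tylosin, where 2.76% of all genes did so with a positive difference. With amoxicillin, Srebf1 and Acly passed it and 2.12% of all genes did. No probe set of the array reached an adjusted p below 0.05 in any comparison, while 6657 with amoxicillin, 6722 with tylosin and 1335 between the antibiotics had an unadjusted p below 0.05. The lowest adjusted p was 0.17 with either antibiotic.

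**Figure D1:**
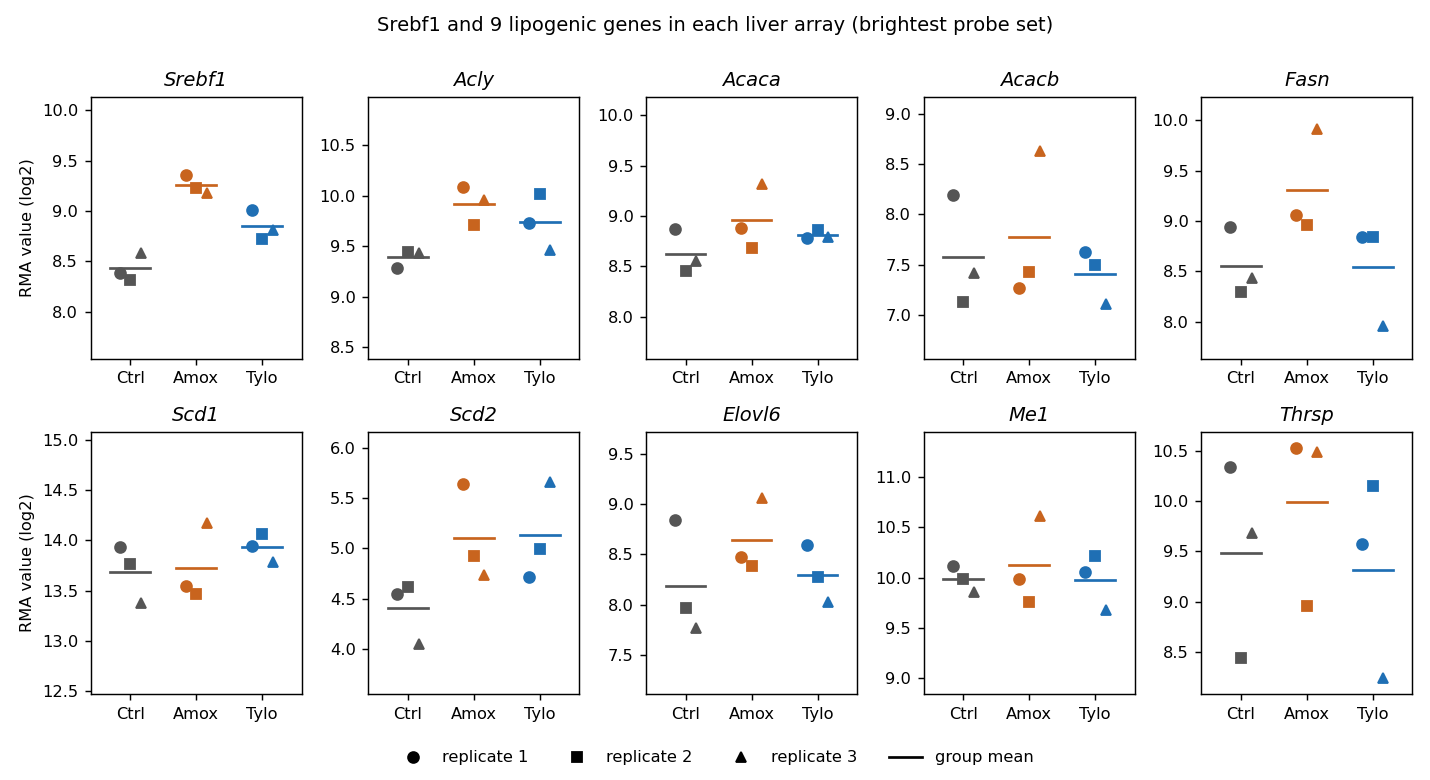
Log2 RMA value of the brightest probe set of each of the 10 genes in each array, by group (Ctrl, control; Amox, amoxicillin; Tylo, tylosin). Symbols show the replicate number, horizontal lines are group means, and every panel spans the same number of log2 units around its own midpoint. For Srebf1 the bands of the 3 groups do not overlap (8.31 to 8.58, 9.18 to 9.36 and 8.72 to 9.01), whereas for Thrsp the groups cover one another.

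Acly, ATP citrate lyase, supplies the acetyl-CoA of the pathway, and it was the other gene called with amoxicillin. Its brightest probe set, 1451666_at, read 9.28, 9.44 and 9.43 in the control arrays. It read 10.09, 9.71 and 9.96 with amoxicillin, and 9.73, 10.02 and 9.46 with tylosin. Every antibiotic array was above every control array, although tylosin replicate 3 was so by only a narrow margin, and the antibiotic groups overlapped. Amoxicillin exceeded control by 0.54 (1.45-fold, SE 0.15, interval 0.21 to 0.86), with an unadjusted limma p of 0.0039 and adjusted p = 0.22. Tylosin exceeded it by 0.35 (1.28-fold, SE 0.15, interval 0.03 to 0.68, adjusted p = 0.30), and tylosin minus amoxicillin was -0.18 (interval -0.51 to 0.14).

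Acly had 6 probe sets, of which 3 were bright and gave the same direction. At 1439459_x_at the control arrays read 9.23, 9.0 and 8.95, the amoxicillin arrays 9.90, 9.43 and 9.74, and the tylosin arrays 9.58, 9.78 and 8.94. The amoxicillin difference of 0.63 there was called (adjusted p = 0.25), and the tylosin difference was 0.37 (adjusted p = 0.40). At 1425326_at the amoxicillin difference was 0.64, not called at an unadjusted limma p of 0.011, and the tylosin difference 0.49 (adjusted p = 0.31), with 6.58 to 6.72 in control, 7.0 to 7.58 with amoxicillin and 6.66 to 7.53 with tylosin. Its remaining probe sets had means of 2.42 to 3.01, near the floor of the array, and differences between -0.17 and 0.14. Over all 25 probe sets of the 10 genes, 3 were called with amoxicillin, Srebf1 and 2 of Acly, all higher, against 1.35% of all probe sets called in either direction.

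The call of Srebf1 with amoxicillin held with each array left out in turn, at 0.77 to 0.91, whereas that of Acly did not. The Acly difference from control was 0.49 when control replicate 1 was left out, 0.45 for amoxicillin replicate 1 and 0.52 for amoxicillin replicate 3, with unadjusted limma p-values of 0.017, 0.019 and 0.014, and was not called in any of these 3 fits. Without amoxicillin replicate 1 and tylosin replicate 2 together it was 0.45, short of the fold, and the difference with tylosin was 0.21. One of 2 measures of RNA quality moved with Acly. The signal of the 3′ probe set of Actb minus that of its 5′ probe set was 1.29, 1.39 and 1.40 in control, 1.57, 1.39 and 1.57 with amoxicillin, and 1.49, 1.73 and 1.21 with tylosin. The arrays with the widest gap, amoxicillin replicates 1 and 3 and tylosin replicate 2, were the highest for Acly, and tylosin replicate 3, with the narrowest, was the lowest antibiotic array. The same measure of Gapdh, at 0.23, 0.40 and 0.43 in control, 0.54, 0.31 and 0.39 with amoxicillin, and 0.41, 0.53 and 0.34 with tylosin, overlapped between the groups and did not follow Acly in amoxicillin replicate 3, which lay below 2 control arrays. The part of RNA quality in the Acly result was not tested.

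Acaca and Acacb encode the acetyl-CoA carboxylases, of which the first serves synthesis in the cytosol and the second sits at mitochondria, where its malonyl-CoA restrains fatty acid oxidation. Neither was called in any comparison. Acaca read 8.87, 8.45 and 8.55 in control, 8.88, 8.68 and 9.32 with amoxicillin, and 8.78, 8.86 and 8.79 with tylosin. Control replicate 1 lay inside the range of the amoxicillin arrays and above every tylosin array. Its difference was 0.34 (interval -0.02 to 0.69, adjusted p = 0.35) with amoxicillin and 0.19 (-0.17 to 0.54, adjusted p = 0.60) with tylosin. The first was 0.16 without amoxicillin replicate 3, and the second was 0.31 without control replicate 1 and 0.10 without control replicate 2.

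Acacb read 8.19, 7.13 and 7.42 in control, 7.27, 7.43 and 8.63 with amoxicillin, and 7.63, 7.50 and 7.11 with tylosin. One control array and one amoxicillin array were far above the rest, and the differences were 0.20 (interval -0.58 to 0.97) and -0.17 (-0.94 to 0.61). These intervals are wide enough to hold a rise or a fall of the size seen for Srebf1 with tylosin. The second probe sets of both carboxylases were near the floor, at means of 3.24 and 3.14. That of Acacb, 1445754_at, was lower with amoxicillin by -0.46 (adjusted p = 0.25), short of the fold, in a direction opposite to that of its bright probe set.

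Fasn encodes fatty acid synthase, the enzyme that builds palmitate. Its only probe set, 1423828_at, read 8.94, 8.30 and 8.43 in control. It read 9.06, 8.96 and 9.91 with amoxicillin, and 8.84, 8.84 and 7.96 with tylosin. All amoxicillin arrays were above all control and all tylosin arrays, but the lowest of them exceeded the highest control array only slightly. Tylosin replicate 3 was the lowest of all 9.

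The mean of Fasn was 8.55 ± 0.34 in control, 9.31 ± 0.52 with amoxicillin and 8.54 ± 0.51 with tylosin. Amoxicillin exceeded control by 0.75 (1.69-fold, SE 0.29, interval 0.10 to 1.41), with an unadjusted limma p of 0.027 and adjusted p = 0.30, which was beyond the fold but not the p of the call. Tylosin differed from control by -0.01 (interval -0.66 to 0.64, adjusted p = 0.99). Tylosin minus amoxicillin was -0.77 (interval -1.42 to -0.11, adjusted p = 1.0). Between the antibiotics 0 of the 10 genes were called, against 0.11% of all genes, and at an unadjusted limma p below 0.05 there were 2, Fasn and Srebf1. In these 2 all tylosin arrays lay below all amoxicillin arrays, which held for 2.56% of all genes. Without amoxicillin replicate 3 the amoxicillin difference of Fasn from control was 0.46, the lowest with any array left out, and tylosin minus amoxicillin was -0.47 without either this array or tylosin replicate 3.

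**Figure D2:**
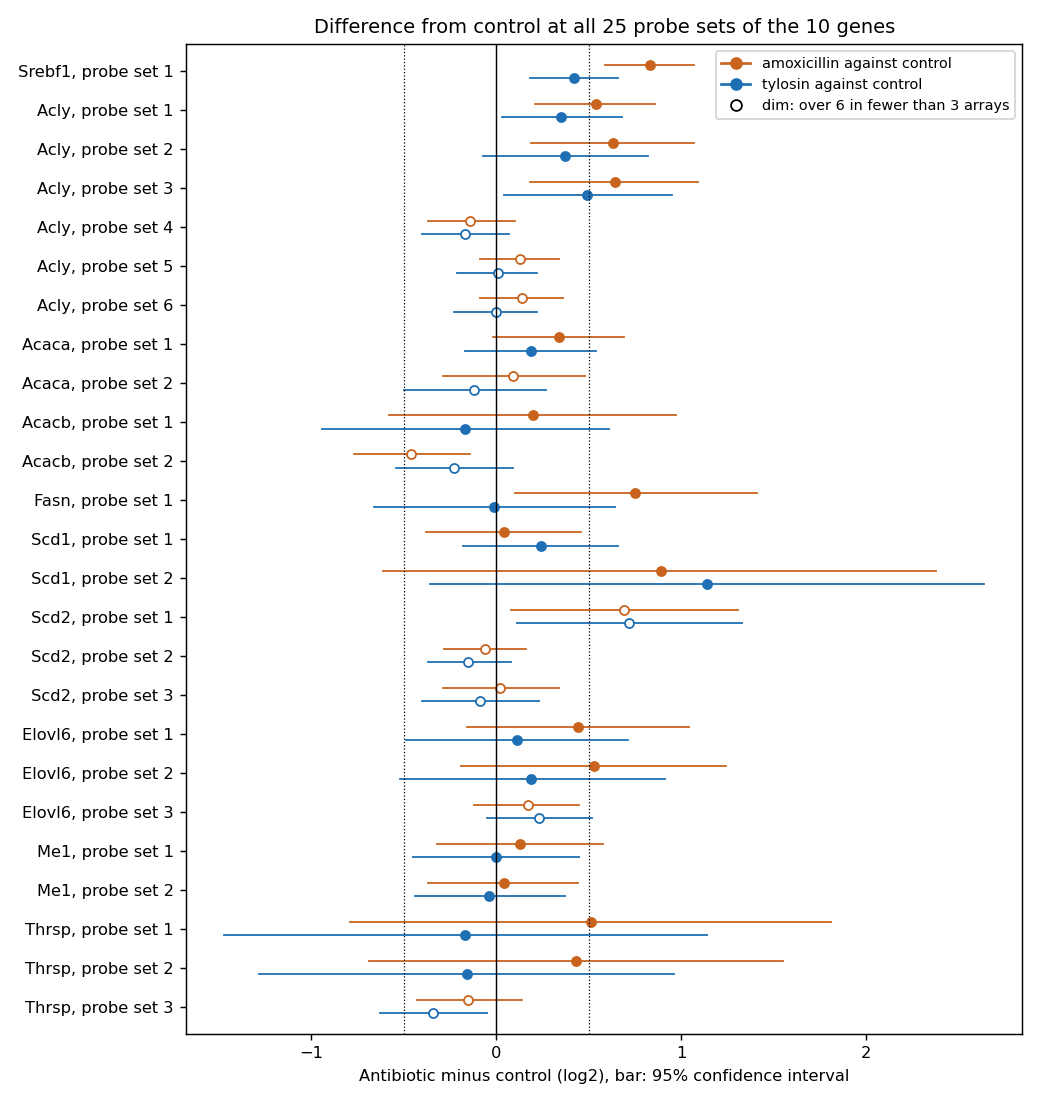
Difference from control (log2) at each of the 25 probe sets, ordered within a gene from the brightest, for amoxicillin (orange) and tylosin (blue), with 95% confidence intervals from the limma fit. Open circles are dim probe sets, dotted lines mark the fold threshold of 0.5, and the intervals of Srebf1 lie above 0 with both antibiotics while those of Thrsp and of the second Scd1 probe set are several times wider.

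Scd1 and Scd2 encode stearoyl-CoA desaturases, which put the double bond into oleate and palmitoleate, and Scd1 is the main form of liver. Scd1 read 13.93, 13.76 and 13.38 in control, 13.55, 13.47 and 14.17 with amoxicillin, and 13.94, 14.06 and 13.78 with tylosin at 1415964_at. The groups overlapped, and the differences were 0.04 (interval -0.38 to 0.46, adjusted p = 0.94) and 0.24 (-0.18 to 0.66, adjusted p = 0.57).

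The second Scd1 probe set, 1415965_at, moved over a much wider range. It read 9.55, 9.26 and 6.83 in control, 8.81, 8.89 and 10.60 with amoxicillin, and 10.07, 9.93 and 9.05 with tylosin. Its range over the 9 arrays was 3.77, against 0.78 at the first probe set, and in both the lowest array was control replicate 3 and the highest amoxicillin replicate 3. The differences were 0.89 (interval -0.61 to 2.38, adjusted p = 0.55) with amoxicillin and 1.14 (-0.36 to 2.64, adjusted p = 0.45) with tylosin. Neither was called.

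Scd2 was dim, below 6 in every array at all 3 of its probe sets. The brightest read 4.55, 4.62 and 4.05 in control, 5.64, 4.92 and 4.74 with amoxicillin, and 4.72, 4.99 and 5.66 with tylosin. All antibiotic arrays were above all control arrays, by 0.69 (adjusted p = 0.30) and 0.72 (adjusted p = 0.28) on average, and neither difference was called. The first was 0.42 without amoxicillin replicate 1, and the second was 0.45 without tylosin replicate 3. The other 2 probe sets did not share this, with differences of -0.06 and 0.02 for amoxicillin and -0.15 and -0.09 for tylosin. A filter that kept probe sets above 6 in at least 3 arrays retained the other 9 genes and removed Scd2.

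Elovl6 encodes the elongase that takes palmitate to stearate. It read 8.84, 7.97 and 7.77 in control, 8.47, 8.38 and 9.06 with amoxicillin, and 8.59, 8.28 and 8.03 with tylosin. Control replicate 1 lay above 5 of the 6 antibiotic arrays, and the other control arrays lay below all of them. The difference was 0.44 (interval -0.16 to 1.04, adjusted p = 0.46) with amoxicillin and 0.11 (-0.49 to 0.71, adjusted p = 0.87) with tylosin. Without control replicate 1 the amoxicillin difference became 0.77 and was called, whereas it was 0.23 without control replicate 3 and 0.23 without amoxicillin replicate 3. A second bright probe set gave 0.53 and 0.19.

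Me1 encodes the cytosolic malic enzyme, which yields NADPH for the synthase. It read 10.11, 9.99 and 9.86 in control, 9.99, 9.76 and 10.61 with amoxicillin, and 10.06, 10.21 and 9.68 with tylosin. The differences were 0.13 (interval -0.32 to 0.58) and 0.00 (-0.45 to 0.45), and 0.04 and -0.04 at its second probe set. The groups overlapped, and neither interval excludes a small change.

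Thrsp encodes Spot 14, a small protein that accompanies lipogenesis and responds to thyroid hormone and carbohydrate, and it was the most variable of the 10. It read 10.34, 8.44 and 9.68 in control, 10.53, 8.96 and 10.49 with amoxicillin, and 9.57, 10.15 and 8.24 with tylosin. Each group spanned well over 1 unit, and the pooled SD within groups was 0.95, against 0.13 for Srebf1, 0.20 for Acly and 0.46 for Fasn. The differences of 0.51 (interval -0.79 to 1.81, adjusted p = 0.70) and -0.17 (-1.47 to 1.14, adjusted p = 0.91) were smaller than this spread. Without control replicate 2 the amoxicillin difference was -0.01. Its second bright probe set gave 0.43 and -0.16.

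Taking the 10 genes as a list, all 10 differences from control were positive with amoxicillin, between 0.04 and 0.83, with a median of 0.48. Over all genes 44.6% were positive and the median was -0.025. With tylosin 6 were positive and 4 negative, between -0.17 and 0.72, with a median of 0.15, while 46.7% of all genes were positive and the median was -0.015. Tylosin minus amoxicillin was negative for 8 of the 10, between -0.77 and 0.20, with a median of -0.26 against 0.01 over all genes. The amoxicillin median was 0.25 when amoxicillin replicate 3 was left out and 0.29 when control replicate 2 was, and Acacb, Scd1, Me1 or Thrsp turned negative when single arrays were left out. The tylosin median was 0.31 without control replicate 1, 0.30 without tylosin replicate 3, 0.08 without tylosin replicate 1, 0.05 when control replicate 2 was left out and 0.01 when control replicate 3 was. The median between the antibiotics was -0.14 without amoxicillin replicate 3 and -0.17 without tylosin replicate 3. Without amoxicillin replicate 1 and tylosin replicate 2, the pair highest in gut transcripts, the medians were 0.44, 0.14 and -0.31. In that fit the amoxicillin difference was 0.88 for Fasn and 0.42 for Scd2, and the tylosin difference was 0.79 for Scd2. Both comparisons with control share the same 3 control arrays, and the 10 genes are not independent of one another, so these counts describe the arrays and carry no p.

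Much of the variation of the enzymes was between mice of the same group. Averaged over the 10 genes and set against the control mean, the control arrays were at 0.31, -0.19 and -0.12, the amoxicillin arrays at 0.45, 0.12 and 0.77, and the tylosin arrays at 0.25, 0.33 and -0.08. Control replicate 1 was thus above 1 of the amoxicillin arrays and 2 of the tylosin arrays. It was the highest control array for 7 of the 10 genes, Acaca, Acacb, Fasn, Scd1, Elovl6, Me1 and Thrsp. Amoxicillin replicate 3 was the highest of all 9 arrays for 6 of them, Acaca, Acacb, Fasn, Scd1, Elovl6 and Me1, and tylosin replicate 3 was the lowest of its group for 7. Neither of the high arrays was one of the pair highest in gut transcripts.

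Once each gene was expressed as its deviation from its group mean, these enzymes varied together from array to array. Pearson's r of the deviations over the 9 arrays was 0.92 between Fasn and Me1, 0.91 between Scd1 and Me1, 0.90 between Acaca and Acacb and between Acacb and Fasn, and 0.83 between Fasn and Elovl6. Thrsp followed Fasn with an r of 0.78. Of the 36 pairs that leave out Srebf1, 28 were positive and 16 exceeded 0.7, with a median of 0.64. Acly was looser, at 0.42 with Fasn, 0.53 with Me1 and 0.62 with Thrsp, and Scd2 ran the other way, at -0.60 with Fasn and -0.51 with Acacb. These values are descriptions, and the share of all gene pairs on the array that exceed 0.7 is not given. Nor is r without amoxicillin replicate 3, the highest array for Acaca, Acacb, Fasn, Scd1, Elovl6 and Me1. The points of a group share a mean that was subtracted, and all genes of an array share its RNA and its normalization.

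For Srebf1 the values were lower. The r of its deviations was between -0.54 and 0.18 with the other 9 genes, at -0.11 with Fasn, -0.01 with Acly, -0.15 with Elovl6 and -0.54 with Scd1. Within groups Srebf1 hardly varied, as its SD of 0.13 shows. Control replicate 1, the control array with the most Fasn, Elovl6 and Acacb, had less Srebf1 than control replicate 3, and amoxicillin replicate 3, with the most Fasn of all, had the least Srebf1 of its group.

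Across all 9 arrays, where differences between groups also enter, Srebf1 ran closest to Acly. Pearson's r was 0.75 (exact permutation p = 0.026, adjusted p = 0.23 over the 9 relations tested) and Spearman's rho 0.73 (exact permutation p = 0.031, adjusted p = 0.26). Without amoxicillin replicate 1 and control replicate 2, the arrays farthest from the median of Srebf1, r was 0.63. Fasn gave an r of 0.54 (exact permutation p = 0.13) and a rho of 0.63 (exact permutation p = 0.076), and Acaca an r of 0.51 (exact permutation p = 0.16). Of the 9 relations, 0 passed an adjusted p of 0.05, and, as given above, the r with Acly was -0.01 once the group means were removed.

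**Figure D3:**
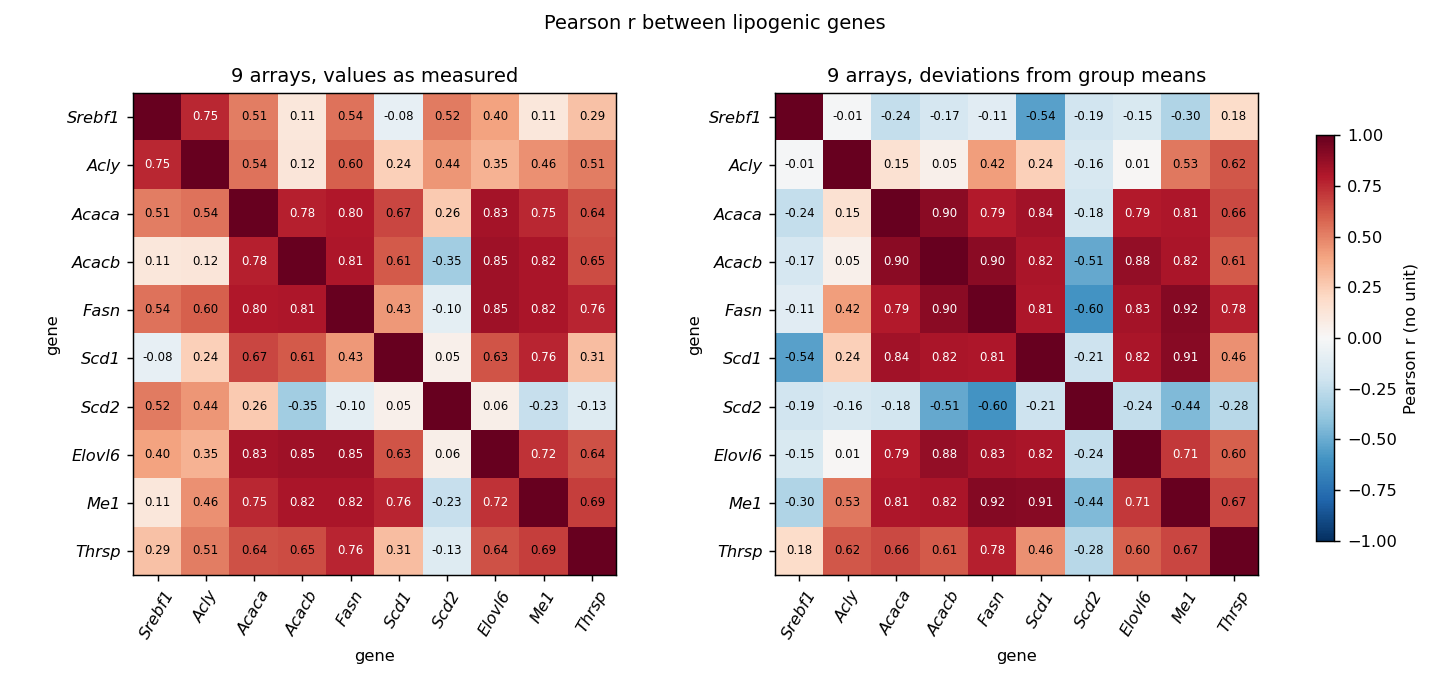
Pearson's r between the 10 genes over the 9 arrays, from the measured log2 values (left) and from deviations from group means (right), with colour and printed value giving r. On the right Acaca, Acacb, Fasn, Scd1, Elovl6 and Me1 form a block of high values, up to 0.92 between Fasn and Me1, while the row of Srebf1 holds values between -0.54 and 0.18.

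The genes whose pattern over the 9 arrays was most like that of Srebf1, of 7723 genes above 6 in at least 3 arrays, were Il13ra1 (r of 0.978), Tsen15 (0.942), Rictor (0.934), Tasor (0.932) and Stra6l (0.925). Il13ra1 read 6.95 to 7.07 in control, 7.32 to 7.51 with amoxicillin and 7.05 to 7.28 with tylosin. Those most like the mean of the 10 genes, each scaled to the same variance, were Park7 (0.965), Myh14 (0.945), Nr1i2 (0.943), Echdc1 (0.939) and Sc5d (0.932). Sc5d, an enzyme of cholesterol synthesis, was at 11.33, 10.86 and 10.70 in control, 11.43, 11.20 and 11.56 with amoxicillin, and 11.20, 11.20 and 10.87 with tylosin. Like the enzymes above, it was highest in control replicate 1 among the controls and in amoxicillin replicate 3 overall. These are the tops of long rankings and carry no test.

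The genes around the pathway were counted in the same way. Of 62 listed genes in 9 roles, 56 were measured, and 1 was called higher with amoxicillin, the same 1 with tylosin, and 0 lower with either. Over all genes 0.835% were called higher with amoxicillin and 1.01% with tylosin, and 0.445% and 0.44% lower. A count of 1 in 56 is not far from these shares. Their differences had a median of 0.05 with amoxicillin (35 positive, from -0.29 to 0.54) and 0.00 with tylosin (26 positive, from -0.77 to 0.53). Between the antibiotics 0 of the 56 were called, against 0.11% of all genes.

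The gene called was Mbtps2, the site-2 protease that makes the second cut releasing SREBP from the membrane. It read 6.76, 6.61 and 6.25 in control, 6.98, 6.91 and 7.24 with amoxicillin, and 7.29, 7.05 and 6.86 with tylosin. All amoxicillin arrays were above all control arrays, as in 9.52% of all genes, and so were all tylosin arrays, as in 8.21%. The difference was 0.50 (1.42-fold, SE 0.15, adjusted p = 0.25) with amoxicillin, only just beyond the fold, and 0.53 (1.44-fold, SE 0.15, adjusted p = 0.21) with tylosin. Without control replicate 3 these were 0.36 and 0.38. With each array left out in turn, a check added after the values were seen, Mbtps2 stayed called in 3 of 9 fits with amoxicillin and in 5 of 9 with tylosin. Without amoxicillin replicate 1 and tylosin replicate 2 they were 0.53 and 0.54, not called at an unadjusted limma p of 0.024 each. Of the other SREBP handlers, Scap, the escort protein, differed by -0.04 and -0.12, and Insig2 by 0.39 (adjusted p = 0.35) and 0.07. Insig1, which retains SREBP in the endoplasmic reticulum and is itself a target of SREBP, differed by 0.19 and -0.37, and its tylosin minus amoxicillin difference was -0.56 (adjusted p = 1.0).

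Among the transcription factors that act beside SREBP1, 0 of 7 measured were called. Mlxipl, which encodes the carbohydrate sensor ChREBP, differed by 0.03 with amoxicillin and -0.25 (adjusted p = 0.32) with tylosin. Ppargc1b, a coactivator of SREBP1, differed by -0.19 and -0.68 (adjusted p = 0.26). In insulin signalling 0 of 7 were called. The insulin receptor gene Insr differed by 0.25 (adjusted p = 0.30) and 0.16, and Irs2, an adaptor of the receptor, by -0.29 and -0.77 (adjusted p = 0.28).

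Supply of substrate was likewise without calls. Acss2, which makes acetyl-CoA from acetate, differed by 0.54 and -0.06, with 8.71 to 10.04 in control and 10.94 in amoxicillin replicate 3. Cs, citrate synthase, differed by -0.07 and -0.18. Pgd, an NADPH-yielding enzyme of the pentose phosphate pathway, and Tkt, transketolase of the same pathway, differed by 0.40 (adjusted p = 0.32) and 0.33 with amoxicillin and by 0.20 and 0.25 with tylosin. In glycolysis and fructose use, Pklr, liver pyruvate kinase, differed by 0.19 and -0.35 and Khk, ketohexokinase, by 0.27 and 0.10. The tylosin minus amoxicillin difference of Pklr was -0.54 (adjusted p = 1.0).

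Of the genes that govern acetyl-CoA carboxylase, Mid1ip1, a paralog of Thrsp that helps the carboxylase polymerize, differed by 0.33 (adjusted p = 0.30) and 0.06. Prkaa1, a catalytic subunit of AMP-activated kinase, which inhibits the carboxylase, differed by 0.50 (adjusted p = 0.22) with amoxicillin, which before rounding was just under the fold of the call, and by 0.35 with tylosin. Its probe set was dim, at 3.35 to 4.11. Among other elongases, Elovl1 differed by 0.25 (adjusted p = 0.30) and 0.08 and Elovl2 by 0.09 and -0.16. Lpin1 and Acsl3, which serve the making of glycerolipids, differed by 0.22 and 0.33 with amoxicillin and by -0.03 and 0.15 with tylosin, with no call.

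**Figure D4:**
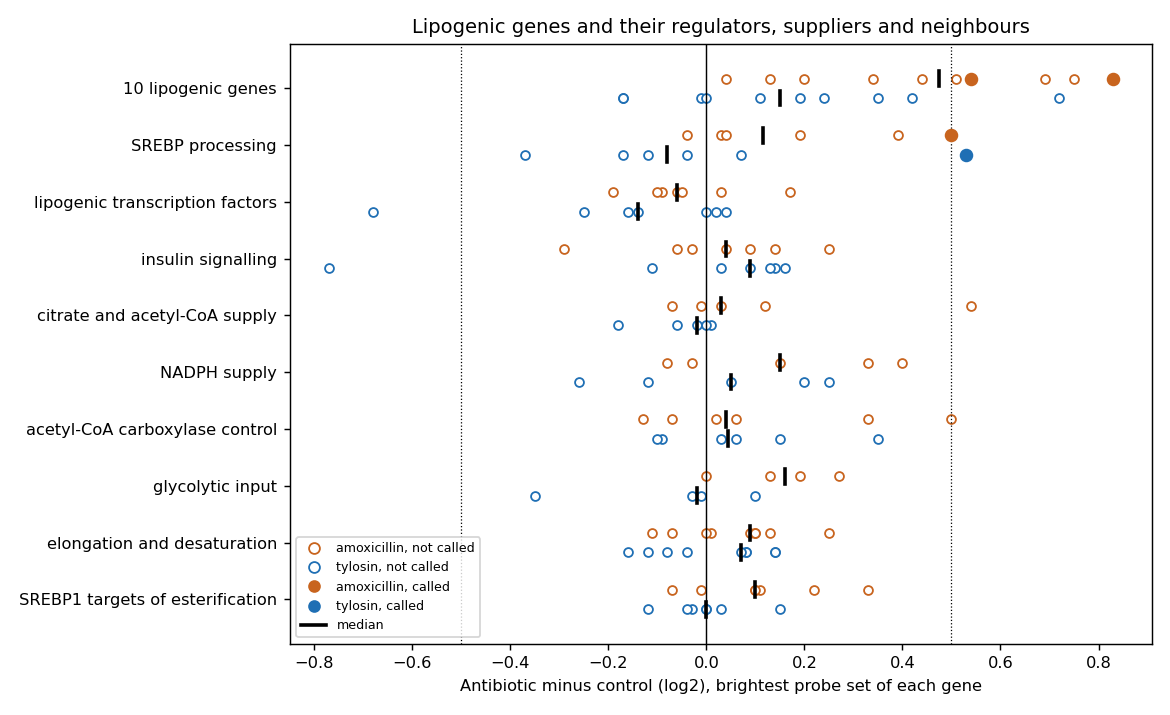
Difference from control (log2, brightest probe set) for the 10 lipogenic genes and for the measured genes of 9 neighbouring roles, with amoxicillin in orange, tylosin in blue, called genes filled and black bars at the median of each role. The amoxicillin median of the 10 genes is 0.48, and the called points are Srebf1 and Acly with amoxicillin and Mbtps2 with both antibiotics.

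Markers of other cells were set beside these results. The summed level of the adipocyte list, of which 4 of 6 were measured and 3 were below 6 in all arrays, was higher in every antibiotic array than in control, as Srebf1 was. It was 7.24 to 7.32 in control, 7.34 to 7.66 with amoxicillin and 7.44 to 8.21 with tylosin. Its order otherwise differed from that of Srebf1, which was highest with amoxicillin, and amoxicillin replicate 3 had the highest sum of its group and the least Srebf1. The sum follows Fabp4, at 6.79 to 8.0, which macrophages also express. The defining adipocyte markers Adipoq and Lep were near the floor in every array, at 2.46 to 2.99 and 2.94 to 3.37. The part of adipocyte RNA in the Srebf1 result was not tested. Tylosin replicate 3, the array with the least Fasn, also had the highest summed macrophage markers (6 of 6 measured), 12.92 against 11.69 to 12.33 in the other arrays, and leukocyte markers (5 of 6), 9.13 against 7.80 to 8.43. The macrophage markers did not move as one there. Cd5l (11.95), Marco (10.95), Adgre1 (9.59) and Timd4 (7.29) were at their highest of all arrays, while Clec4f (7.5) and Vsig4 (9.40) were at their lowest. The leukocyte sum followed Ptprc (8.83), while Cd3e (5.76), Cd79a (4.03) and Nkg7 (3.91) lay within the range of the other arrays. Ms4a1 (4.18) was at its highest there, but was below 6 in every array. Without that array the tylosin difference from control was 0.44 for Srebf1, 0.49 for Acly and 0.28 for Fasn, and 0 of the 10 were called. The intestinal list (6 of 6 measured) summed to 11.10 to 11.44 in control, 11.17 to 11.88 with amoxicillin and 11.12 to 11.77 with tylosin, and the smooth muscle list (6 of 6) to 7.45 to 7.72, 7.38 to 9.28 and 7.66 to 9.48. Most of the intestinal sum was Fabp2, at 10.90 to 11.62 over all arrays. Fabp2 was at 11.03 in amoxicillin replicate 1 and 11.13 in tylosin replicate 2. In amoxicillin replicate 3 it was at 11.62, where the sum was 11.65 and Reg3b 2.70.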

How the data were processed

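Liver RNA of 9 mice, 3 in each group, was labelled from the 3′ end and hybridized to Affymetrix mouse arrays. Before deposit, the authors summarized the probes by RMA with the affy package, so the deposited values are log2 expression values. No source used here gives the tools' versions or a genome build. The array's background correction is therefore that of RMA, and no depth applies: the number of arrays limits the precision. No pair of arrays was identical, and pairwise r was 0.988 to 0.996.

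Of 45101 probe sets, 64 controls of the manufacturer were left out. In GEO's annotation of the array 34945 of the remaining 45037 carried 1 gene symbol, 932 several and 9160 none. Group means were fitted to all 9 arrays with limma 3.58.1 in R 4.3.3, with empirical Bayes moderation, and p-values were adjusted over all probe sets by the Benjamini-Hochberg method. Calls followed the thresholds of the study's methods, 0.01 for the unadjusted p and 0.5 for the log2 difference. Permutation tests of correlations were exact and two-sided, over all orders of the arrays, with ranks from scipy 1.17.1. Plots were made in matplotlib 3.10.9 (Python 3.11.15). Promoter windows came from RefSeq on GRCm38.p6. The fit was tested on simulated data.

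Named genes were the 10 members, called genes of the pathway list, and up to 2 more in each role with the largest difference. Scap was named in addition to these. Also named were the 5 genes most like Srebf1, the 5 most like the mean of the 10, and cell markers. The members and lists were chosen with earlier results of these data known. Alternatives were other thresholds, quantile normalization, median centring, the removal of dim probe sets, other variance models, array weights, fits of the compared groups alone, the mean of all probe sets, manufacturer's controls kept, a replicate block and arrays left out. Replicate numbers were not taken as pairs: of 9 same-numbered pairs of arrays, 2 had residuals correlated above 0.1.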

Additional observations from a re-analysis of the deposited data

How the results depend on the processing

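With amoxicillin, 2 of the 10 genes were called, and the number was 0 with an adjusted p below 0.05, 0 with a log2 difference over 1, 1 with quantile normalization, 1 with the mean of all probe sets, 1 without both arrays high in gut transcripts, and 1 to 2 with each array left out in turn. Srebf1 stayed called in all of these but the first and second (0.75 to 0.91 over all alternatives). Acly was lost with quantile normalization (0.48) and with the mean of all its probe sets (0.32), which includes its dim ones. With the p of 0.01 and no fold, 1 gene passed with tylosin and 1 between the antibiotics, Srebf1 in each, in place of 0, and with each array left out 0 were called in both. With the replicate number as a block, 2 genes were called with amoxicillin and 0 in the other comparisons, and the block changed no call. The list medians were 0.25 to 0.63, 0.01 to 0.31 and -0.37 to -0.14 (tylosin minus amoxicillin) over the alternatives. None of the relations with Srebf1 passed under median centring, quantile normalization or without the 2 arrays farthest from its median.

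Some differences that were not called changed sign, and the cause was not tested. They reached -0.37 and 0.51 in the fit as reported, for Acacb between the antibiotics and Thrsp with amoxicillin. With the mean of all probe sets these were Acacb with amoxicillin (-0.13) and Scd2 between the antibiotics (-0.06). With tylosin they were Fasn (0.04) and Me1 (0.05) under median centring, and Fasn (0.12), Me1 (0.06) and Thrsp (0.12) with array weights. With single arrays left out, the amoxicillin differences ran from -0.23 to 0.50 for Acacb, -0.18 to 0.17 for Scd1, -0.11 to 0.31 for Me1 and -0.01 to 1.03 for Thrsp. Those with tylosin ran from -0.39 to 0.14 for Acacb, -0.16 to 0.28 for Fasn, -0.10 to 0.43 for Elovl6, -0.12 to 0.15 for Me1 and -0.69 to 0.37 for Thrsp. Tylosin minus amoxicillin ran from -0.29 to 0.03 for Acaca, -0.62 to 0.06 for Acacb, -0.25 to 0.29 for Scd2 and -0.32 to 0.11 for Me1. Scd2 gave no value under the filter on dim probe sets. Groups of 3 arrays and values close to background, as for Scd2, limit what these differences can show.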
